A study of Mus musculus with 12 samples.

Results

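The circadian clock genes described here were Arntl, Clock, Per1, Per2, Per3, Cry1, Ciart, Nr1d1, Nr1d2 and Dbp, which are 10 of the 38924 genes counted in proximal colon by RNA-Seq. They were chosen by name, after the Ensembl identifiers of the count tables had been matched to gene symbols. RNA came from 12 mice, 6 per genotype (APC Min/+ and WT), all of them female C57BL/6 mice killed with carbon dioxide at 6 weeks of age. APC Min/+ mice carry a germline truncating mutation in 1 copy of the tumour suppressor gene Apc, in every cell, and WT mice carry none. The mice came from the supplier in several shipments and the genotypes were caged apart, so genotype and cage cannot be told apart, and the labels give neither a shipment nor a time of dissection for any mouse.

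The circadian clock is a feedback loop of transcription that runs in almost every cell over about a day. The proteins of Arntl (also called Bmal1) and Clock bind together to E-box sequences and switch on the Per and Cry genes, Ciart, Nr1d1, Nr1d2 and Dbp. The PER, CRY and CIART proteins then hold that pair back. NR1D1 and NR1D2 (REV-ERB alpha and beta) repress Arntl through RORE sequences, so that Arntl mRNA runs almost opposite in phase to the Per genes in most tissues. DBP acts on D-box sequences in other clock genes and in output genes. In the colon the clock is known to set daily rhythms of cell division, motility and absorption, and is reset by feeding.

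Promoter sequences are shown for 4 members of correlated pairs described further on, Ciart with Per3, Ciart against Arntl, and Cry1 against Clock. Clock and Nr1d2 are also in such pairs, but their windows held none of the motifs marked below and are not shown. The sequences are from RefSeq (GRCm38.p6), run 5′ to 3′ on the strand of the gene over the 250 bases before the start site, and stop short of annotated exons where these intrude. Capitals mark matches on either strand to an E-box (CACGTG), an E-prime box (CACGTT), a D-box (TTANGTAA), a RORE core (TNGGTCA) or a cyclic AMP response element (TGACGTCA). The first is the Ciart promoter, chr3:95882252-95882478 on the reverse strand.
Ciart: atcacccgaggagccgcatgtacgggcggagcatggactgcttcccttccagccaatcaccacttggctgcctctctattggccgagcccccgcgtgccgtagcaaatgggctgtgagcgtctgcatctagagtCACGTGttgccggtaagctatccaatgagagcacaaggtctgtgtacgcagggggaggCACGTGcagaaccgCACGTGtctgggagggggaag
The second is the Per3 promoter, chr4:151044666-151044915 on the reverse strand.
Per3: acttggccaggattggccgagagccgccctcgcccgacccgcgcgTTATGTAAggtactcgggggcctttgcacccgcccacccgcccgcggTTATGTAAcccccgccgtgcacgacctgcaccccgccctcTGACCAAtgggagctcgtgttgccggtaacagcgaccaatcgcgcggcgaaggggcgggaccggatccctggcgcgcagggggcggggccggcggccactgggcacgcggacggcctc
The next is the Arntl promoter, chr7:113207215-113207464 on the forward strand.
Arntl: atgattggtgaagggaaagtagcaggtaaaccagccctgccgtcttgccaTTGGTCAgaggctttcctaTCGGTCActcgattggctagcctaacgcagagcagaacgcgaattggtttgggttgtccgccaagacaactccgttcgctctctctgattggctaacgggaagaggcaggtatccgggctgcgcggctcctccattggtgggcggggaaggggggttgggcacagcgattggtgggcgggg
The last is the Cry1 promoter, chr10:85185065-85185304 on the reverse strand.
Cry1: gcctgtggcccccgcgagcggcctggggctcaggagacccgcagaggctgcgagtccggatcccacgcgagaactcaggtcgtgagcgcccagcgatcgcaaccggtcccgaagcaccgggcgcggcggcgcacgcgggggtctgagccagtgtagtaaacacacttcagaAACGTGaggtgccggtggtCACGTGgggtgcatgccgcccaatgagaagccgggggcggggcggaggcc

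The Ciart promoter held 3 E-boxes, the nearest of them 39 to 44 bases before the start. The Per3 promoter held 2 D-boxes and 1 RORE core on the opposite strand. The Arntl promoter held 2 RORE cores and no other motif searched. The Cry1 promoter held 1 E-box and 1 E-prime box. RefSeq promoter windows were found for 9 of the 10 members and not for Per2, and 6 members had a match in these windows, the others being Per1, with 1 E-box, and Nr1d1, with 1 E-prime box. Over all 32851 promoter windows of the table, 6.02% held an E-box, 3.85% an E-prime box, 2.06% a D-box, 9.19% a RORE core and 1.55% a cyclic AMP response element. No match was found in the windows of Clock, Nr1d2 or Dbp. A match describes the letters of the sequence and shows no binding.

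Total counts on genes ranged from 50313805 to 197914821 per mouse, and each member had between 515 and 46910 counts in every mouse, so counting error was small beside the spread between mice. Levels below are in CPM, the count of a gene relative to the library's total count after scaling by TMM factors, unless RPKM, which is also relative to gene length, is named. Epithelial markers summed to between 7609 and 14847 CPM in these samples, which are labelled as mucosa. Smooth muscle markers were also high, at between 5556 and 8172 CPM, and 3 of these 10 markers had an unadjusted p under 0.05 between genotypes. Fibroblast markers summed to between 1101 and 2835 CPM, with 1 of 6 at an unadjusted p under 0.05. Immune markers summed to between 260 and 504 CPM and markers of enteric neurons and glia to between 49.1 and 112 CPM. In bulk tissue, fewer cells of a type and less RNA per cell cannot be told apart. Libraries M10_2, M13_1 and M17_1 stood apart from the rest, and results that rest on them are given with and without them. In APC Min/+ mice M10_2 and M13_1, genes of distal colon identity summed to 3832 and 3691 CPM, against 4.50 to 15.9 CPM in the other 10 mice. The genes of that list are all among those the paper reports as higher in APC Min/+ mice in these same data. That all 6 tested had an unadjusted p under 0.05 between genotypes is therefore no separate support. In WT mouse M17_1, 12.7% of counts were mitochondrial, against 4.35% to 8.46% in the others, the immediate early gene Fos was at 13.6 CPM, against 44.9 to 130.1 CPM, and the epithelial and fibroblast sums were the lowest of the 12. APC Min/+ mouse M2_A had the highest sum of adipocyte markers, at 553 CPM against 20.7 to 307 CPM.

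All 10 clock genes were expressed in every mouse. Per length of gene, Nr1d1 was the most abundant, at 47.9 ± 18.9 RPKM (SD, n = 12), followed by Nr1d2 at 42.5 ± 8.29 RPKM and Dbp at 31.5 ± 5.23 RPKM. The core genes were lower. Clock was at 14.8 ± 3.66 RPKM, Per1 at 12.3 ± 4.01 RPKM, Per2 at 11.7 ± 3.32 RPKM, Per3 at 9.67 ± 3.40 RPKM and Ciart at 9.66 ± 2.94 RPKM. Cry1, at 7.20 ± 2.33 RPKM, and Arntl, at 5.63 ± 2.41 RPKM, were the lowest. Neighbours in this order differed by less than the larger of their SDs, except that Dbp lay below Nr1d2 and above Clock by more than the SD of either.

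The first comparison asked whether the clock genes differed between genotypes before polyposis. A gene was called where edgeR's quasi-likelihood test gave an FDR under 0.05 and the fold was 2 or more. By this rule 0 of the 10 were called, and their FDRs lay between 0.908 and 0.943. The same test called 0.0% of the 20311 genes tested. At an unadjusted p under 0.05, 1 of the 10 passed, Arntl, while 5.27% of all tested genes did, 3.46% higher and 1.81% lower in APC Min/+ mice. The mean was higher in APC Min/+ mice for 4 members, Arntl, Clock, Nr1d1 and Dbp, and lower for 6. It was higher for 48.4% of all tested genes. The median log2 fold change, APC Min/+ minus WT, was -0.12 over the members and -0.01 over all tested genes, and the median size without the sign was 0.20 against 0.15. The genotypes overlapped in every member, and 0.118% of all tested genes had groups that did not overlap.

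**Figure D1:**
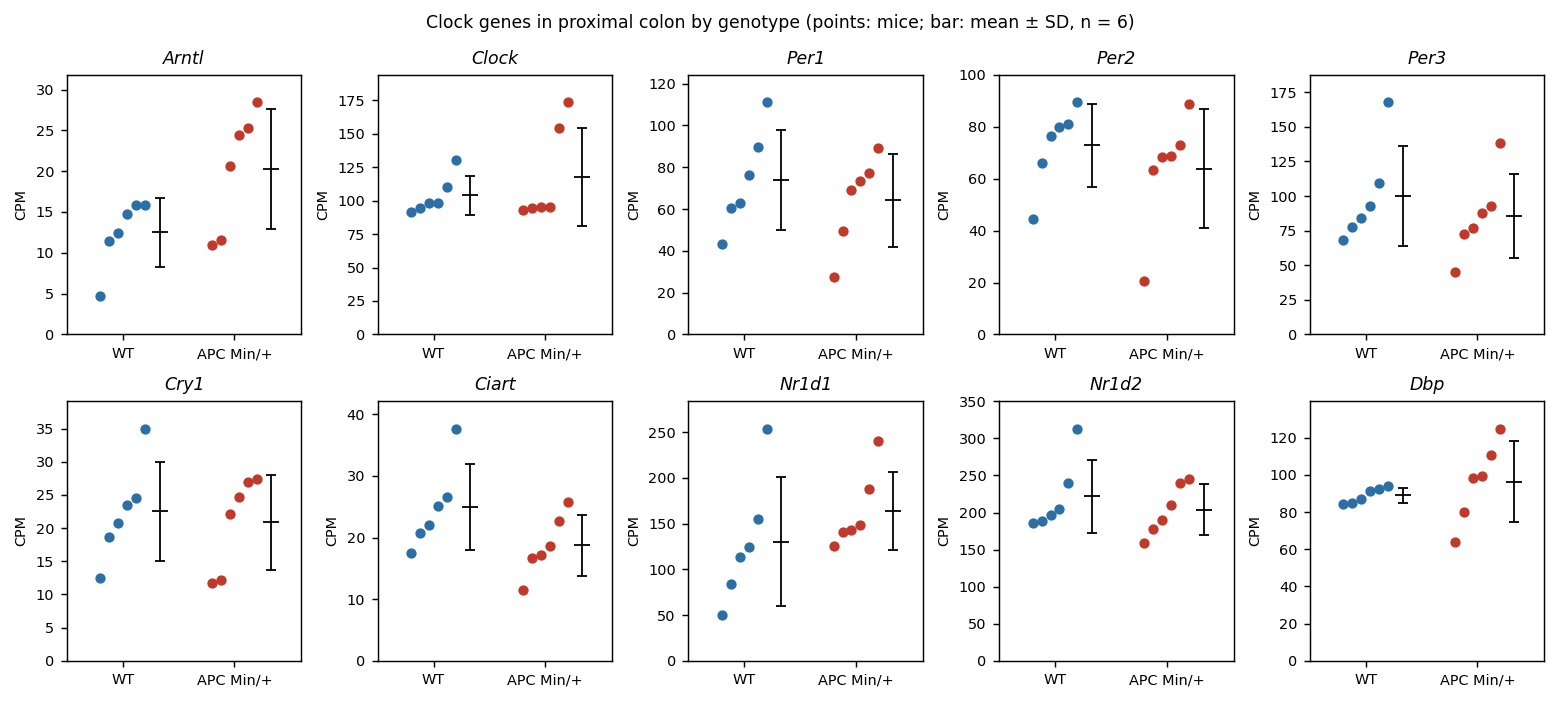
Level in CPM (count relative to library size, TMM-scaled) of each clock gene in the 6 WT mice (blue) and the 6 APC Min/+ mice (red), with 1 point per mouse, ordered by level, and the mean ± SD beside the points. In Arntl, 4 APC Min/+ mice lay above the highest WT mouse at 15.9 CPM, and the genotypes overlapped in every gene.

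Arntl (ENSMUSG00000055116.7, chr7:113207465-113314126, forward strand, GRCm38) encodes the partner of CLOCK and drives the loop. Its level in APC Min/+ mice was 11.0 CPM at the lowest, 22.6 at the median and 28.4 at the highest, and in WT mice 4.74, 13.5 and 15.9 CPM. Thus 4 APC Min/+ mice lay above every WT mouse, while the other two lay among the WT mice. The means were 20.2 ± 7.36 and 12.5 ± 4.21 CPM (SD, n = 6), a 1.62-fold difference. On the log2 scale this was 0.69 (standard error 0.30, unadjusted p = 0.0389, FDR = 0.908, edgeR's quasi-likelihood test). The 95% interval was 0.10 to 1.29 by a normal approximation, which is not the distribution of that test. The unadjusted p rose to 0.149, with a log2 fold change of 0.52, without M10_2 and M13_1, which were at 25.2 and 24.5 CPM. It was 0.0550 without M17_1 alone, the lowest of all mice, and 0.0925 without M2_A alone, the highest, and lay between 0.0573 and 0.0746 without M8_2, M10_2, M13_1, M17_2 or M18_2a alone. Fibroblast markers moved with Arntl, with sums of 1881 to 2835 CPM (median 2222) in APC Min/+ mice and 1101 to 2189 CPM (median 1679) in WT mice, and their part in the Arntl difference was not tested. Of the members, Arntl had the widest range, 5.99-fold between the lowest and the highest mouse.

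Clock (ENSMUSG00000029238.8, chr5:76209868-76304792, reverse strand), the other part of the activator pair, was between 91.6 and 109.8 CPM in 9 of the 12 mice. APC Min/+ mice had 93.1, 95.4 and 173 CPM at the lowest, the median and the highest, and WT mice 91.6, 98.3 and 131 CPM. The high values were those of M13_1 at 173 CPM and M10_2 at 154 CPM, with distal colon identity genes, and WT mouse M18_2a at 131 CPM. The log2 fold change was 0.18 (standard error 0.18, unadjusted p = 0.331, edgeR) and turned to -0.14 without M10_2 and M13_1. The part of colon position in these levels was not tested.

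Of the Period genes, whose proteins repress CLOCK and ARNTL, all 3 had a mean below that of the WT mice in APC Min/+ mice, and 0 were called. Per1 (ENSMUSG00000020893.11, chr11:69095217-69109960, forward strand) was at 27.6, 71.0 and 89.4 CPM in APC Min/+ mice, as lowest, median and highest, and at 43.3, 69.6 and 111 CPM in WT mice. Per2 (ENSMUSG00000055866.8, chr1:91415982-91459324, reverse strand) was at 20.5, 68.6 and 88.6 CPM in APC Min/+ mice and at 44.4, 78.2 and 89.4 CPM in WT mice. Per3 (ENSMUSG00000028957.6, chr4:151003652-151044665, reverse strand) was at 45.4, 82.5 and 138 CPM in APC Min/+ mice and at 68.0, 88.7 and 168 CPM in WT mice. M2_A was the lowest of all 12 mice in each of the 3 genes, and M17_1 was the highest in Per2 and Per3 but not in Per1. The log2 fold changes were -0.20 for Per1 (standard error 0.27, unadjusted p = 0.465), -0.19 for Per2 (standard error 0.27, unadjusted p = 0.495) and -0.22 for Per3 (standard error 0.26, unadjusted p = 0.400) in edgeR. Without M2_A the Per2 difference was 0.01, so its direction rested on that mouse, and the Per1 difference was -0.03. Without M17_2 the Per1 difference was -0.05. The Per3 difference was -0.07 without M2_A and -0.0075 without M17_1, and -0.41 without M13_1.

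Cry1 (ENSMUSG00000020038.9, chr10:85131700-85185064, reverse strand) encodes a cryptochrome, the strongest repressor of the loop. Its levels were 11.8, 23.4 and 27.4 CPM in APC Min/+ mice, as lowest, median and highest, and 12.4, 22.2 and 35.0 CPM in WT mice. In 3 mice it lay well below the other 9, M10_2 at 11.8 CPM, M13_1 at 12.2 CPM and M17_1 at 12.4 CPM, against 18.7 CPM or more. The log2 fold change of -0.11 (standard error 0.27, unadjusted p = 0.689, edgeR) turned to 0.17 without M10_2 and M13_1, and to 0.07 without WT mouse M18_b.

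Ciart (ENSMUSG00000038550.4, chr3:95878503-95882251, reverse strand), also called Chrono, encodes a repressor that binds ARNTL. Levels were 11.5, 17.9 and 25.8 CPM in APC Min/+ mice, as lowest, median and highest, and 17.5, 23.6 and 37.7 CPM in WT mice. The lowest mouse of all was M2_A and the highest M17_1, the reverse of their order in Arntl. The means of 18.7 ± 4.99 and 25.0 ± 7.01 CPM (SD, n = 6) gave a log2 fold change of -0.41 (standard error 0.21, unadjusted p = 0.0672, edgeR). Without M10_2 and M13_1 it was -0.52 with an unadjusted p of 0.0385, and without M17_1 it was -0.25 with an unadjusted p of 0.207. The unadjusted p was also under 0.05 without M13_1 alone, at 0.0242, and without M16_1 alone, at 0.0405.

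The REV-ERB genes differed in their pattern across mice. Nr1d1 (ENSMUSG00000020889.11, chr11:98767932-98775333, reverse strand) was at 126, 146 and 241 CPM in APC Min/+ mice, as lowest, median and highest, and at 50.2, 119 and 254 CPM in WT mice. The top values belonged to WT mouse M18_b at 254 CPM and APC Min/+ mouse M8_2 at 241 CPM, and the lowest to M17_1. Those mice also had the highest epithelial marker sums, 14847 and 12678 CPM, and the lowest, 7609 CPM, in the same order, and the part of epithelial content in the Nr1d1 level was not tested. Nr1d2 (ENSMUSG00000021775.10, chr14:18204054-18239127, reverse strand) was at 159, 200.3 and 245 CPM in APC Min/+ mice and at 186, 201 and 313 CPM in WT mice. Its highest value was that of M17_1, which was lowest in Nr1d1. The log2 fold changes were 0.34 for Nr1d1 (standard error 0.31, unadjusted p = 0.301) and -0.12 for Nr1d2 (standard error 0.15, unadjusted p = 0.443) in edgeR. The Nr1d1 value ranged from 0.16 to 0.64 with 1 mouse left out, the lowest without M17_1 and the highest without M18_b, where the unadjusted p was 0.0366. The Nr1d2 value was 0.0056 without M17_1.

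Dbp (ENSMUSG00000059824.4, chr7:45705088-45710203, forward strand), the output factor, differed more in its spread than in its mean. WT mice had 84.1, 89.4 and 93.9 CPM at the lowest, the median and the highest, whereas APC Min/+ mice had 63.7, 98.9 and 125 CPM. Thus 4 APC Min/+ mice lay above every WT mouse and the other two below every WT mouse. The SD on the log2 scale was 0.35 in APC Min/+ mice and 0.07 in WT mice, and this difference in spread was not tested. The log2 fold change was 0.11 (standard error 0.14, unadjusted p = 0.427, edgeR), and -0.06 without M10_2 and M13_1, the highest of all mice at 111 and 125 CPM. The lowest mouse, M2_A, was the mouse with the highest adipocyte markers, whose part was not tested.

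**Figure D2:**
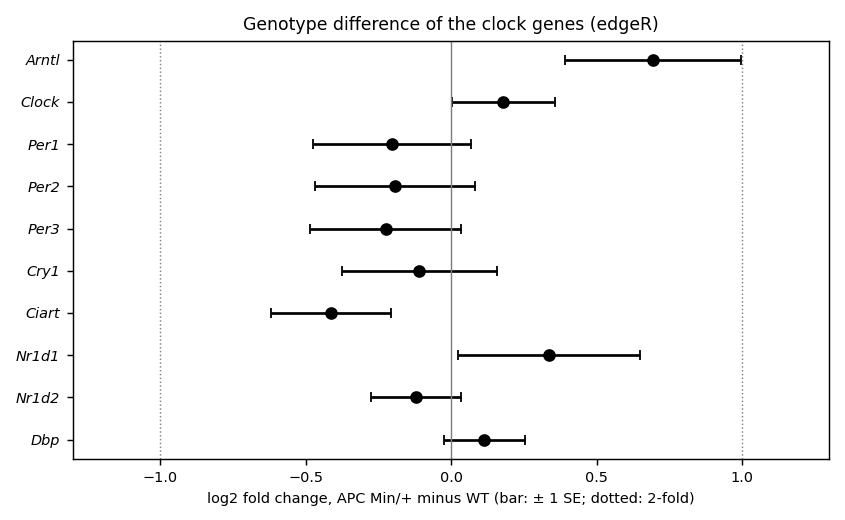
Log2 fold change of each clock gene, APC Min/+ minus WT (n = 6 each), from edgeR, with bars of ± 1 standard error and dotted lines at a fold of 2. Arntl lay highest at 0.69 and Ciart lowest at -0.41, and no member reached a fold of 2.

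The next question was how far the clock genes varied between mice of the same genotype. The within-genotype SD of the log2 level was 0.63 for Arntl, 0.61 for Nr1d1, 0.59 for Per2, 0.55 for Per1, 0.53 for Cry1 and 0.49 for Per3. These lay between the percentiles 80.1 and 90.2 of all tested genes. Ciart had an SD of 0.39, Clock 0.32, Nr1d2 0.27 and Dbp 0.25, the last at percentile 32.2. The median over the 10 members was 0.51, against 0.32 over all tested genes and 0.24 over the 8373 genes at or above the mean level of Arntl, 16.4 CPM, the lowest member. Without M17_1 and M2_A, a choice made after their values were seen, the median of the members was 0.33. The spread was not alike in the genotypes. Per2 had an SD of 0.76 in APC Min/+ mice and 0.36 in WT mice, and Nr1d1 one of 0.34 in APC Min/+ mice and 0.79 in WT mice, neither difference being tested.

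**Figure D3:**
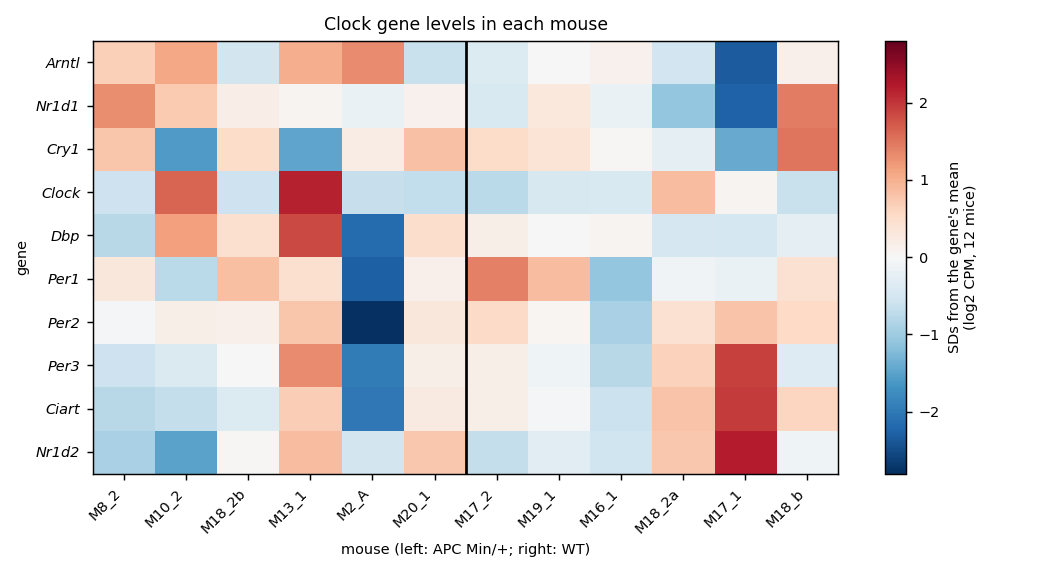
Level of each clock gene (rows) in each mouse (columns, APC Min/+ left of the line, WT right), as SDs of log2 CPM from the gene's mean over 12 mice, red high and blue low. M17_1 was lowest in Arntl (4.74 CPM) and highest in Per3, Ciart and Nr1d2, and M2_A was highest in Arntl (28.4 CPM) and lowest in the Per genes, Ciart and Dbp.

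M17_1 and M2_A lay at opposite ends of the 12 mice in Arntl, Per2, Per3 and Ciart, but not in Nr1d1, Nr1d2 or Dbp. M17_1 had 4.74 CPM of Arntl, 50.2 of Nr1d1, 168 of Per3, 37.7 of Ciart and 313 of Nr1d2. M2_A had 28.4 CPM of Arntl, 126 of Nr1d1, 45.4 of Per3, 11.5 of Ciart and 190.4 of Nr1d2. Npas2, the stand-in for Clock, was also lowest in M17_1, at 3.74 CPM against 9.99 CPM or more in the other 11 mice. The 2 mice differ in genotype and in adipocyte markers as given above, and had the highest mitochondrial shares, 12.7% in M17_1 and 8.46% in M2_A. Fibroblast markers summed to 1101 CPM in M17_1 and 2131 CPM in M2_A. Smooth muscle markers summed to 5703 and 8172 CPM and epithelial markers to 7609 and 10792 CPM, in the same order. The part of these in the pattern was not tested.

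Relations between members were then measured as the correlation of log2 levels over the 12 mice, for all 45 pairs, with p from a permutation test of 100000 resamples (two-sided), adjusted over the 45 pairs by Benjamini-Hochberg. Of these, 9 pairs passed an adjusted p of 0.05, 6 positive and 3 negative, and 14 had a raw p under 0.05. All 9 had the same sign within APC Min/+ mice and within WT mice. Within a genotype of 6, the exact permutation test allows no p below 0.0014. Adjusted over 45 pairs within a genotype, 4 pairs passed in APC Min/+ mice, all positive among Per2, Per3, Ciart and Dbp, and 0 in WT mice.

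The pair with the largest r was Per3 and Ciart, a Period gene and a repressor. Of the promoters shown above, that of Ciart held E-boxes and that of Per3 held none. Pearson's r was 0.92 (raw p = 0.00012, adjusted p = 0.0022) and Spearman's rho 0.89 (raw p = 0.00030, adjusted p = 0.0090). Within APC Min/+ mice r was 0.98 (exact permutation p = 0.0014) and within WT mice 0.92 (exact permutation p = 0.011). It held without any 1 mouse, at r of 0.88 to 0.97, and without M17_1 and M2_A, the farthest from the median, r was 0.75 with an adjusted p of 0.0936. Per2 went with both, at r = 0.82 with Ciart (raw p = 8e-05, adjusted p = 0.0022, rho 0.88 with raw p = 0.00040 and adjusted p = 0.0090) and r = 0.82 with Per3 (raw p = 0.00015, adjusted p = 0.0022, rho 0.85 with raw p = 0.00089 and adjusted p = 0.0133). Both lost the call without M2_A, at r of 0.74 and adjusted p of 0.0609. Leaving out the 2 mice farthest from the median of Per2, M16_1 and M2_A, gave r of 0.86 with Ciart and 0.80 with Per3. Summed immune markers had an r over 12 mice of -0.72 with Per2, -0.62 with Ciart and -0.58 with Per3. For epithelial markers these were -0.20, -0.45 and -0.64, in the same order. The part of either in these relations was not tested. Per1 and Per2 had r = 0.79 (raw p = 0.0069, adjusted p = 0.0424), but rho was 0.34 (raw p = 0.289, adjusted p = 0.663) and r was -0.03 without M16_1 and M2_A, so that relation rested on those mice. Its call was lost without M2_A alone, at r = 0.47 and an adjusted p of 0.334, and without M8_2, M10_2, M20_1, M16_1 or M18_2a.

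Nr1d2 was correlated with Ciart and Per3, and its pairs with Per1, Per2 and Cry1, at r of 0.13, 0.40 and -0.28, were not called. Its r was 0.79 with Ciart (raw p = 0.0027, adjusted p = 0.0274, rho 0.80 with raw p = 0.0027 and adjusted p = 0.0242) and 0.78 with Per3 (raw p = 0.0036, adjusted p = 0.0274, rho 0.73 with raw p = 0.0086 and adjusted p = 0.0643). Without M17_1 these were 0.63 and 0.62, each with an adjusted p of 0.156. The call with Ciart was also lost without M8_2 or M18_2a, and that with Per3 without M8_2, M13_1, M16_1 or M18_2a. Without the 2 farthest mice the values were 0.64 with Ciart (M10_2 and M17_1 left out) and 0.75 with Per3 (M17_1 and M2_A left out). The pair of Nr1d1 and Nr1d2, which encode close relatives with the same target sites, had r = -0.71 (raw p = 0.012, adjusted p = 0.0539) and rho -0.40 (raw p = 0.201, adjusted p = 0.503), with r of -0.52 without the farthest mice, M17_1 and M18_b.

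**Figure D4:**
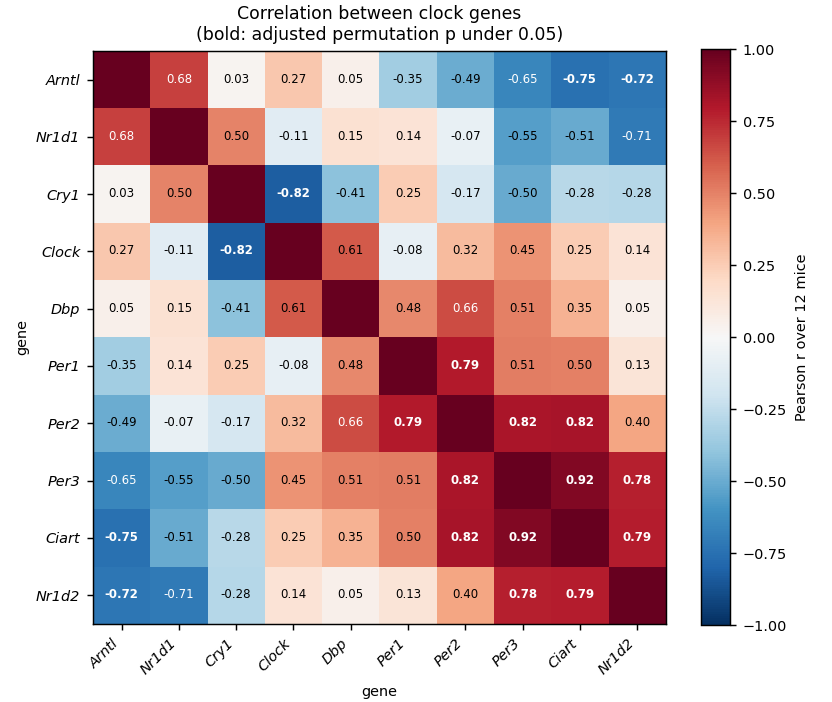
Pearson r of log2 CPM over the 12 mice for each pair of clock genes, red positive and blue negative, with bold numbers where the adjusted permutation p was under 0.05. Per2, Per3, Ciart and Nr1d2 form a block of positive values (r of 0.40 to 0.92), and Arntl is negative against all 4 (r of -0.75 to -0.49).

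Negative relations to Arntl were called for Ciart and Nr1d2. As no time of dissection is known for any mouse, a negative r between mice does not measure phase. With Ciart r was -0.75 (raw p = 0.0075, adjusted p = 0.0424) and rho -0.64 (raw p = 0.028, adjusted p = 0.158). With the genotype means subtracted, r was -0.66 with an adjusted p of 0.0865, so the call was lost. Within APC Min/+ mice r was -0.44 (exact permutation p = 0.389) with rho -0.54, and within WT mice r was -0.88 (exact permutation p = 0.026) with rho -0.66. With Nr1d2 r was -0.72 (raw p = 0.0099, adjusted p = 0.0494) and rho -0.57 (raw p = 0.056, adjusted p = 0.252). Within APC Min/+ mice r was -0.47 (exact permutation p = 0.325) with rho -0.43, and within WT mice r was -0.92 (exact permutation p = 0.042) with rho -0.49. Leaving out M17_1 and M2_A brought r to -0.29 with Ciart and -0.42 with Nr1d2, so both relations rested on those mice. Without M17_1 alone they were -0.55 (adjusted p = 0.222) and -0.43 (adjusted p = 0.398). With 1 mouse left out, the call with Ciart was kept without M18_2b, M13_1, M17_2 or M18_b and lost without any of the other 8, and that with Nr1d2 was kept without M13_1 or M17_2 and lost without any of the other 10. Leaving out M10_2 and M13_1 instead gave -0.90 and -0.87, each with an adjusted p of 0.014. Summed fibroblast markers had an r over 12 mice of 0.77 with Arntl, -0.64 with Ciart and -0.63 with Nr1d2. Their part in these relations was not tested. Over the whole table, 11.2% of the other tested genes had an r with Arntl of -0.5 or lower and 13.4% one of 0.5 or higher.

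The Per genes had negative values that were not called over all 12 mice. Arntl against Per3 had r = -0.65 (raw p = 0.026, adjusted p = 0.0983) and rho -0.65 (raw p = 0.026, adjusted p = 0.158). Against Per2 r was -0.49 (raw p = 0.110, adjusted p = 0.224) and rho -0.41 (raw p = 0.186), and against Per1 r was -0.35 (raw p = 0.259, adjusted p = 0.420) and rho -0.24 (raw p = 0.457). For Per3 this was -0.96 within WT mice (exact permutation p = 0.0028) and -0.31 within APC Min/+ mice (exact permutation p = 0.556), and -0.03 without M17_1 and M2_A. Without M10_2 and M13_1, however, it was -0.96 with an adjusted p of 0.0030, and without M13_1 alone -0.92 with an adjusted p of 0.0061, both past the threshold. A pair without Arntl, Cry1 and Nr1d1, also passed without M10_2 and M13_1, at r = 0.93 (adjusted permutation p = 0.0030). Over all 12 mice that pair had r = 0.50 (adjusted permutation p = 0.214), and without M17_1 alone r = 0.28. Arntl and Nr1d1 had a positive value, at r = 0.68 (raw p = 0.018, adjusted p = 0.0725) and rho 0.48 (raw p = 0.122, adjusted p = 0.459), with r of 0.51 without M17_1 and M2_A. It was 0.86 within WT mice (exact permutation p = 0.0042) and 0.09 within APC Min/+ mice (exact permutation p = 0.881). Whether these relations differ between genotypes was not tested. Against Dbp, r was 0.05 (raw p = 0.877, adjusted p = 0.898), against Cry1 0.03 (raw p = 0.938, adjusted p = 0.938) and against Clock 0.27 (raw p = 0.376, adjusted p = 0.546), with rho of 0.00 (raw p = 1.0), -0.20 (raw p = 0.541) and 0.12 (raw p = 0.717). All 3 values of r changed sign in at least 1 alternative.

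**Figure D5:**
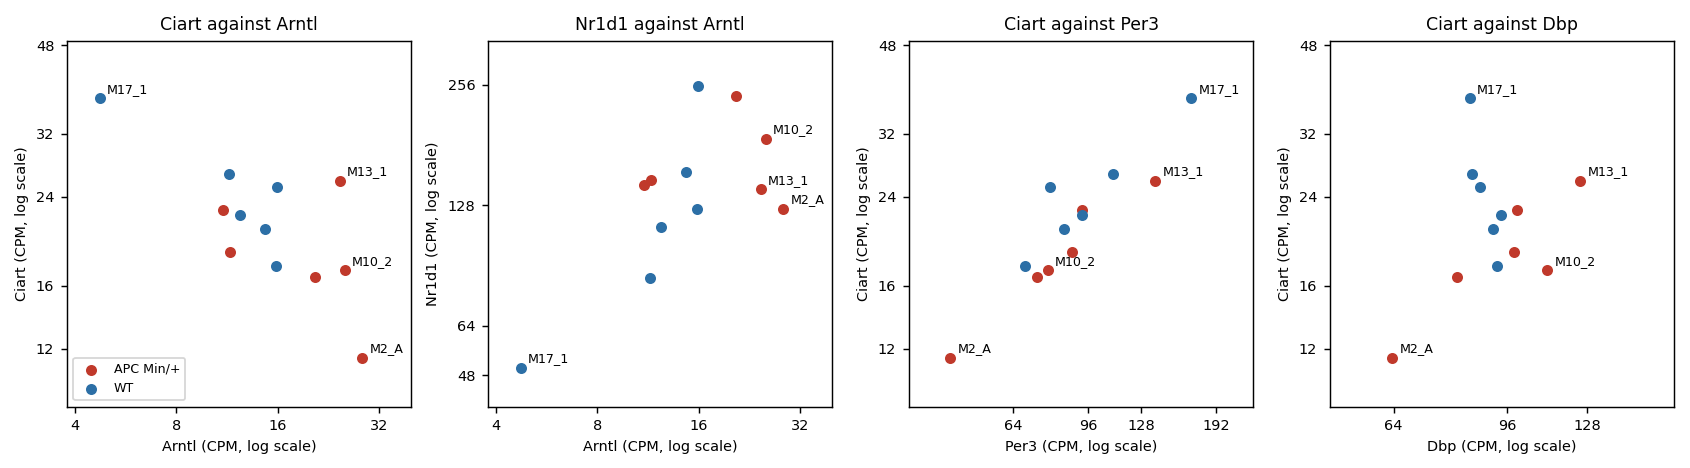
Ciart against Arntl, Nr1d1 against Arntl, Ciart against Per3 and Ciart against Dbp, in CPM on log axes, with 1 point per mouse (red APC Min/+, blue WT) and the mice named in the text labelled. Ciart falls with Arntl (r = -0.75) between the end points M17_1 and M2_A, and rises with Per3 (r = 0.92).

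Cry1 and Clock formed the third negative pair, with r = -0.82 (raw p = 0.0037, adjusted p = 0.0274) and rho -0.81 (raw p = 0.0022, adjusted p = 0.0242). It was -0.97 within APC Min/+ mice (exact permutation p = 0.050) and -0.58 within WT mice (exact permutation p = 0.258). Without M10_2 and M13_1, the farthest from the Clock median and the mice with distal colon genes, r was -0.61 with an adjusted p of 0.209. The call was also lost without M10_2 alone, at r = -0.76 and an adjusted p of 0.0781, and without M13_1, M8_2 or M2_A alone. Without both M17_1 and M2_A it was kept, at r = -0.92 and an adjusted p of 0.0247, and no other pair was.

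Dbp had no pair that passed over 12 mice. With Ciart, r was 0.88 within APC Min/+ mice (exact permutation p = 0.029) and -0.84 within WT mice (exact permutation p = 0.021), where Dbp spanned no more than 84.1 to 93.9 CPM. The difference between these was not tested, and over all mice r was 0.35 (raw p = 0.262, adjusted p = 0.420) and rho 0.15 (raw p = 0.652), with r of -0.42 without the farthest mice, M13_1 and M2_A.

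Beyond the members, 39 genes of the wider clock and of inputs to it were examined from lists set by name, and all 39 were tested. None passed the FDR and fold threshold in either direction, 20 had a higher and 19 a lower mean in APC Min/+ mice, and 1 had an unadjusted p under 0.05, Rorb, against 5.27% of all tested genes. Rorb, a nuclear receptor that activates through ROREs, was low, at a mean of 0.349 CPM and 8 to 152 counts per mouse. Its log2 fold change was 1.15 (standard error 0.42, unadjusted p = 0.0164, FDR = 0.908, edgeR), and its highest values were 0.884 CPM in M13_1 and 0.768 CPM in M10_2. The other ROR genes had log2 fold changes of -0.18 each. Among the bHLH-PAS activators besides the members, 1 of 2 was higher, Npas2 at 0.38. Of the further repressors and regulators 5 of 6 were higher, with a median of 0.05. Both PAR bZIP factors besides Dbp were lower, with a median of -0.15. Of the kinases and ubiquitin ligases that act on PER and CRY, 3 of 6 were higher, and of the rhythmic output genes 2 of 8. Of the glucocorticoid-responsive genes 1 of 5 was higher, with a median of -0.26, and of the immediate early genes 7 of 8, with a median of 0.38. No gene of these last 2 lists had an unadjusted p under 0.05.

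Of these 39 genes, the closest to Arntl across mice were Npas2, which can replace Clock as its partner, with r = 0.76, and Fbxw11, a subunit of a ubiquitin ligase that marks PER for breakdown, with r = 0.74. The most opposite were Nampt, an enzyme of NAD synthesis driven by the clock, with r = -0.77, and Tef, a relative of Dbp, with r = -0.57. Tef followed Ciart, with r = 0.87, where 7.17% of all tested genes reached an r of 0.5 with Ciart and 7.78% one of -0.5 or lower. These genes were picked by their rank in r over 12 mice, so no p is given. Among the 14897 tested genes with a mean of at least 1 CPM, the most like Arntl were Nuak1 (r = 0.96), Mblac1 (0.92), Pcx (0.91), Rbm17 (0.91), Hibadh (0.89) and Rbms1 (0.89). Among the most opposite were Xkr6 (-0.93), Zfp939 (-0.91), Sptbn4 (-0.91), Bbof1 (-0.88) and Apol11a (-0.88). Those most like Dbp were Ttc39a (0.90), Lpar2 (0.90), Sox21 (0.90), Cpd (0.89), Erfe (0.89) and Fchsd2 (0.89), where 15.5% of all tested genes reached an r of 0.5 with Dbp and 18.6% one of -0.5 or lower. No member was in these lists.

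Some members share exonic sequence with a gene on the opposite strand, and whether counting used the strand is not given in the sources used here. Nr1d1 shares 263 of its 3077 exonic bases with Thra, a thyroid hormone receptor gene. Dbp shares 539 of its 2993 exonic bases with Sphk2, and Arntl 33 of its 7523 with Gm45355. The other 7 members share none in GENCODE.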

How the data were processed

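RNA from proximal colon of 12 mice was sequenced by the authors in paired ends, aligned to GRCm38 (GRCm38.p2 per the labels) with STAR 2.3.0 and counted per gene with featureCounts. The deposited values are raw read counts per gene and the gene length. The deposited counts were not normalized. The 20311 genes that reached 10 counts in 3 or more mice were tested with edgeR 4.0.16 (R 4.3.3; TMM, factors 0.906 to 1.10; quasi-likelihood test, Benjamini-Hochberg), which was tested on simulated data. A standard error is the fold change divided by the root of its F statistic. Correlations used log2(CPM + 0.1) and a permutation test computed in numpy 2.4.6. RPKM used the deposited lengths. Symbols and coordinates came from GENCODE, and promoters from RefSeq. Mouse names were taken from the sample titles as replicates. Which cage or shipment a mouse came from is not in the labels, so p-values measure the spread between these mice. No files agreed within sampling noise. Members and lists were chosen with earlier results of these data known. Text names all members, list genes with an unadjusted p under 0.05, the 2 highest and 2 lowest in r with Arntl, and the 6 genes most and least like Arntl and most like Dbp. Genes named besides were chosen after their values were seen, and an item that this rule names is not reported here. Alternatives were DESeq2 1.42.0, edgeR's likelihood ratio test, other scalings and filters, mice left out and a block.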

Additional observations from a re-analysis of the deposited data

Results flagged for a closer look

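Per2 in APC Min/+ mouse M2_A stood apart from its group. Its level was 20.5 CPM, and the nearest of the other 5 APC Min/+ mice was at 63.5 CPM, a gap of 0.632 of the whole range of the group, which is past the 95% limit of Dixon's test for 6 samples. This was the only such value among 20 groups tested (10 genes in each genotype), and chance alone gives about 1 in 20.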

How the results depend on the processing

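No clock gene passed the FDR and fold threshold under any of the 21 alternatives. Of all tested genes, DESeq2 called 27 and edgeR's likelihood ratio test 15, against 0 in the quasi-likelihood test and in every other alternative, including 0 to 0 with 1 mouse left out. Without M10_2 and M13_1 the log2 fold change turned to -0.14 for Clock, 0.17 for Cry1 and -0.059 for Dbp. Without M17_1 and M2_A, an alternative chosen after seeing the data, it turned to 0.067 for Per2, 0.13 for Per3 and 0.033 for Nr1d2. With 1 mouse left out it ranged from -0.31 to 0.011 for Per2, from -0.24 to 0.069 for Cry1 and from -0.18 to 0.0056 for Nr1d2. Arntl and Ciart kept their directions under all 21 alternatives. The suffix of the mouse name was also used as a replicate block. It pairs no mice by the labels, and changed no call, the unadjusted p of Arntl being 0.0541.

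The number of correlated pairs, 9, fell to 1 without M17_1 and M2_A. This was the pair of Cry1 and Clock (r = -0.92, adjusted permutation p = 0.0247). The number fell to 4 within APC Min/+ mice and to 0 within WT mice, where the number of mice was smaller. With 1 mouse left out it ranged from 3 to 10, being 3 without M8_2 or M2_A. The median spread of 0.51 was 0.33 without M17_1 and M2_A. Some relations with Arntl changed sign. That with Clock was -0.42 without M10_2 and M13_1 and -0.40 within WT mice, and that with Per1 0.13 within WT mice. With M17_1 and M2_A left out, which are also the 2 mice farthest from the Arntl median, that with Per2 was 0.0068 and that with Cry1 -0.60. The relation with Cry1 was -0.60 within APC Min/+ mice as well and ranged from -0.50 to 0.24 with 1 mouse left out. That with Dbp was -0.49 without M10_2 and M13_1, -0.21 within APC Min/+ mice and -0.050 with genotype means subtracted, and ranged from -0.18 to 0.50 with 1 mouse left out. Per1 and Per2 had r = -0.028 without the 2 mice farthest from the median. The part of the smaller number of mice, or of any other cause, in these changes was not tested. Each member had at least 515 counts in every mouse, which bears on counting error alone.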
